A study of Mus musculus with 8 samples.

Results

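The genes described here encode the nuclear subunits and assembly factors of respiratory complexes I, II and III and of the ATP synthase. They were chosen by name, as the protein-coding genes whose symbols begin with Nduf, Uqcr, Atp5 or Sdhaf, together with Sdha, Sdhb, Sdhc and Sdhd. The rule gave 79 of the 27534 genes in the table, and cytochrome oxidase was left out by it. By role they were 7 core and 29 supernumerary subunits of complex I, 8 complex I assembly factors, Ndufa4 and its paralog Ndufa4l2, 4 subunits and 4 assembly factors of complex II, 8 subunits of complex III and 17 genes of the ATP synthase. A further 7 rows carried a matching name but were not protein coding and were left out.

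Pancreatic islets of C57BL/6J mice were sequenced as bulk RNA, and reads were counted for each gene. High glucose islets spent 72 h in RPMI medium with 20 mM glucose, and low glucose islets spent the same time with 7.5 mM glucose, with 4 libraries in each group. Nothing in the labels says whether the 4 libraries of a group came from separate animals, so p-values measure only the spread between these samples, which may be technical. The question is how transcripts differ after days in raised glucose, within a series about IRE1α and the Golgi during β-cell compensation.

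Respiratory complexes I to IV pass electrons from NADH and succinate through ubiquinone and cytochrome c to oxygen, and complexes I, III and IV pump protons across the inner mitochondrial membrane. The ATP synthase uses the return of these protons to make ATP. In β cells the ratio of ATP to ADP that results closes potassium channels and couples glucose to insulin secretion. Subunits of complexes I, III and IV and of the ATP synthase come from nuclear and mitochondrial genes, whereas all subunits of complex II are nuclear.

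The bases just upstream of 5 of the genes that moved are shown because promoters of respiratory genes are known for motifs that they share. Each run is the 150 bases before the RefSeq start on the gene's own strand, 5′ to 3′, in GRCm38.p6, with matches to the motifs below other than CCAAT in capitals. Atp5g1 lies on the minus strand at chr11:96075632-96075781, Ndufa1 on the minus strand at chrX:37191239-37191388, Ndufc2 on the plus strand at chr7:97399853-97400002, Ndufa4 on the minus strand at chr6:11907451-11907600 and Sdha on the minus strand at chr13:74350241-74350390.
Atp5g1: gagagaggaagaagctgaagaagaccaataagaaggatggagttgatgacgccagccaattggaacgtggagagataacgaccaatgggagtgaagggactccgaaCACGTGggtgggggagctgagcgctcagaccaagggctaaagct
Ndufa1: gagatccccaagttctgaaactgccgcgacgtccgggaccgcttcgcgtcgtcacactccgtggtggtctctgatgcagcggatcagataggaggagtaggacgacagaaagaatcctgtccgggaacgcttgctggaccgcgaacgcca
Ndufc2: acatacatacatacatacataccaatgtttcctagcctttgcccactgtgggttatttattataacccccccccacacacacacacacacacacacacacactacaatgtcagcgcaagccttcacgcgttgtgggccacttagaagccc
Ndufa4: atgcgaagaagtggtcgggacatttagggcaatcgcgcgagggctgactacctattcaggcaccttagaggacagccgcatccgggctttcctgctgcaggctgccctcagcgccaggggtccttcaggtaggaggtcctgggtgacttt
Sdha: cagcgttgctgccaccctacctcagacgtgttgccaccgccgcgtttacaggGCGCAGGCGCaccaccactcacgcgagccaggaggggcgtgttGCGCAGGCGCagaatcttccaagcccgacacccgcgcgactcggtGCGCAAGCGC
The capitals in Sdha mark 3 matches to the motif of NRF1 (GCGCA and GCGC around any 1 base), a regulator of respiratory genes, and those in Atp5g1 mark 1 E-box (CACGTG). The other 3 runs held no match to the motifs that are marked. Over the full window of 250 bases before to 50 after the start, read on both strands, the NRF1 motif was in 20 of the 67 genes with a promoter in the table (29.9%), against 10.7% of the tested genes and 5.19% of all promoters. The YY1 motif (AAGATGGCG) was in 8 of 67 (11.9%), against 3.28% of the tested genes and 1.64% of all promoters. The shares were 5.97%, 8.56% and 4.31% for an ETS motif (CCGGAAGT), and 8.96%, 11.4% and 8.09% for the E-box. CCAAT was in 41.8%, 42.4% and 41.1%. The strict form of the carbohydrate response element (an exact pair of CACGTG set 5 bases apart) was in none of the 27025 promoters. Inexact pairs were not searched for, so this count cannot tell whether such elements are present. An E-box is part of that element, and no other motif of this set lies within another. These matches describe letters in a window only.

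Total counts per library lay between 20516328 and 24905499 in high glucose and between 19543045 and 24949515 in low glucose. All 79 genes passed the filter on low counts. The sum of β-cell markers was 204928 to 270795 CPM (counts scaled to the size of their library) in high glucose, against 185255 to 265601 CPM in low glucose, which is the largest of the 10 marker sums in every library. Of the 7 β-cell markers 1 was called higher and 3 lower, against 13.1% and 11.9% of all genes tested. Acinar markers summed to 3518 to 18929 CPM in high glucose, against 1264 to 10888 CPM in low glucose, with Amy2b under 1 CPM in every library. Duct markers summed to 555 to 578 CPM in high glucose, against 408 to 525 CPM in low glucose. Of these 6 markers 1 was called higher, against the same 13.1% of all genes. The part of these cells in the results was not tested, and in bulk RNA fewer cells of a type and less RNA per cell cannot be told apart.

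Low glucose replicate 2 stood apart from the other libraries of its group in these genes. It held the highest low glucose value for 77 of the 79 genes (97.5%, against 39.7% of all genes tested). High glucose replicate 2 held the highest high glucose value for 65 of 79 (82.3%, against 32.0% of all genes). The median gene of the 79 was 0.24 log2 units above the other libraries of its group in high glucose replicate 2 and 0.50 above in low glucose replicate 2, while the median of all genes was 0.02 and 0.04 above. The summed level of the 79 genes was 6103, 7225, 6474 and 6311 CPM in high glucose replicates 1 to 4, and 5310, 7336, 5347 and 5607 CPM in low glucose replicates 1 to 4. The lowest of these 8 sums are thus 3 low glucose libraries and the highest is the fourth.

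Gene length and islet cell markers moved with the same library. Among all genes tested, the 3089 shortest by deposited length (57 to 2130 bases) lay at a median of 0.30 log2 units in low glucose replicate 2 relative to the other low glucose libraries, and the 3088 longest (7226 to 123179 bases) at -0.24. The median deposited length was 1815 bases for the 79 genes and 4106 for all genes tested. In the same library the 47 of the 79 that are among those shortest genes lay at a median of 0.54. The 6 with 4881 to 7223 bases also lay at 0.54, against -0.06 for all genes of that length. The β-cell, alpha-cell, delta-cell and PP-cell marker sums were each highest in replicate 2 of either group, the alpha-cell sum reaching 25184 CPM in high glucose and 29436 CPM in low glucose. Their part in the result was not tested.

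**Figure D1:**
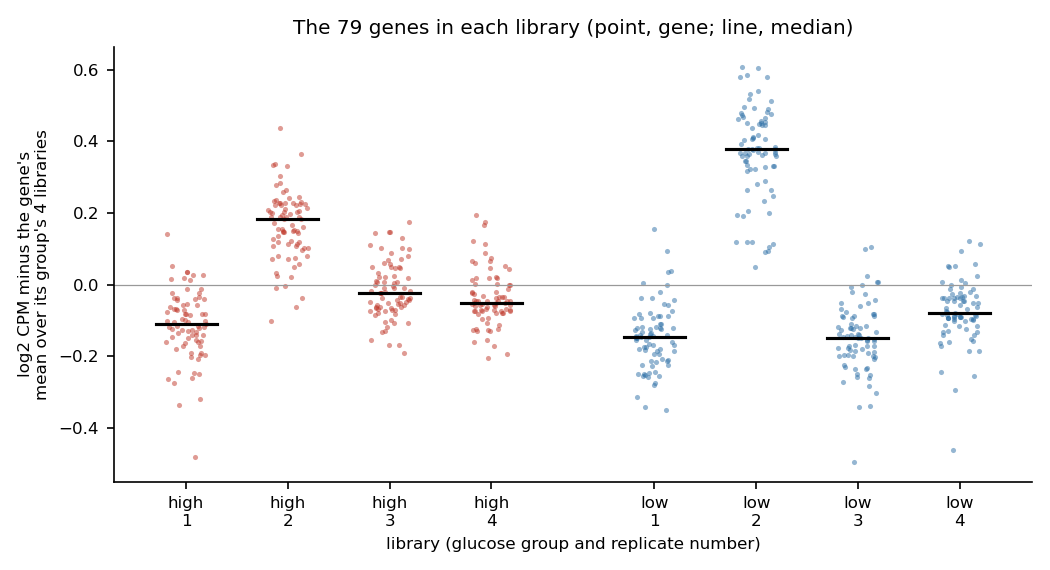
Each point is 1 of the 79 genes in 1 library, as its log2 CPM minus the mean log2 CPM of that gene over the 4 libraries of its group, and lines are medians over genes. High glucose libraries are on the left and low glucose libraries on the right, and replicate 2 is the highest of both groups, the more so in low glucose.

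Most of the 79 genes were at similar levels in both glucose concentrations, and a few single subunits were not. In high glucose 7 genes rose and 1 fell (adjusted p under 0.05, edgeR's quasi-likelihood test), which is 8 of 79 or 10.1%, against 25.0% of the 15442 genes tested (13.1% higher and 11.9% lower). Among those that rose were Ndufa1, Ndufc2, Ndufa4 and Ndufa4l2, Uqcrq of complex III and Atp5g1 of the ATP synthase, and the gene that fell was Sdha of complex II. The median log2 fold change of the 79 was 0.07, with 57 above 0 and 22 below, and that of all genes tested was -0.01. Within 1.3-fold in either direction lay 69 of the 79 (87.3%), against 67.8% of all genes. Of the 71 that were not called, 58 had a 95% interval within 1.5-fold in either direction.

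The groups of libraries did not overlap for 6 genes that were higher in high glucose (7.59%, against 13.7% of all genes) and for 2 that were lower (2.53%, against 13.6%). Ndufa4 was called although its groups overlapped. Of the 2 genes with every high glucose library lower, 1 was the assembly factor Ndufaf6, which had an adjusted p of 0.0589 in the edgeR test and was named after its values were seen. The authors' deposited table calls 9 of the 79 higher (11.4%, against 8.12% of its tested genes) and 1 lower (1.27%, against 7.12%). Its 27502 tested genes include genes with low counts that the edgeR filter removed, while all 79 passed that filter. Among the 15442 genes past the filter, edgeR called 13.1% higher, against 8.86% of the 79.

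The count of calls differed between fits, and the cause was not tested. With the replicate number as a block, 23 genes were called higher and 5 lower (35.4%, against 37.4% of all genes tested, with 18.9% higher and 18.5% lower), and the 8 were among them. Without low glucose replicate 2, 34 were called higher and 1 lower (44.3%, against 32.4% of all genes, with 16.8% higher and 15.6% lower), and the median log2 fold change of the 79 was 0.22. All 8 were again among them, and 24 genes were called under both settings.

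**Figure D2:**
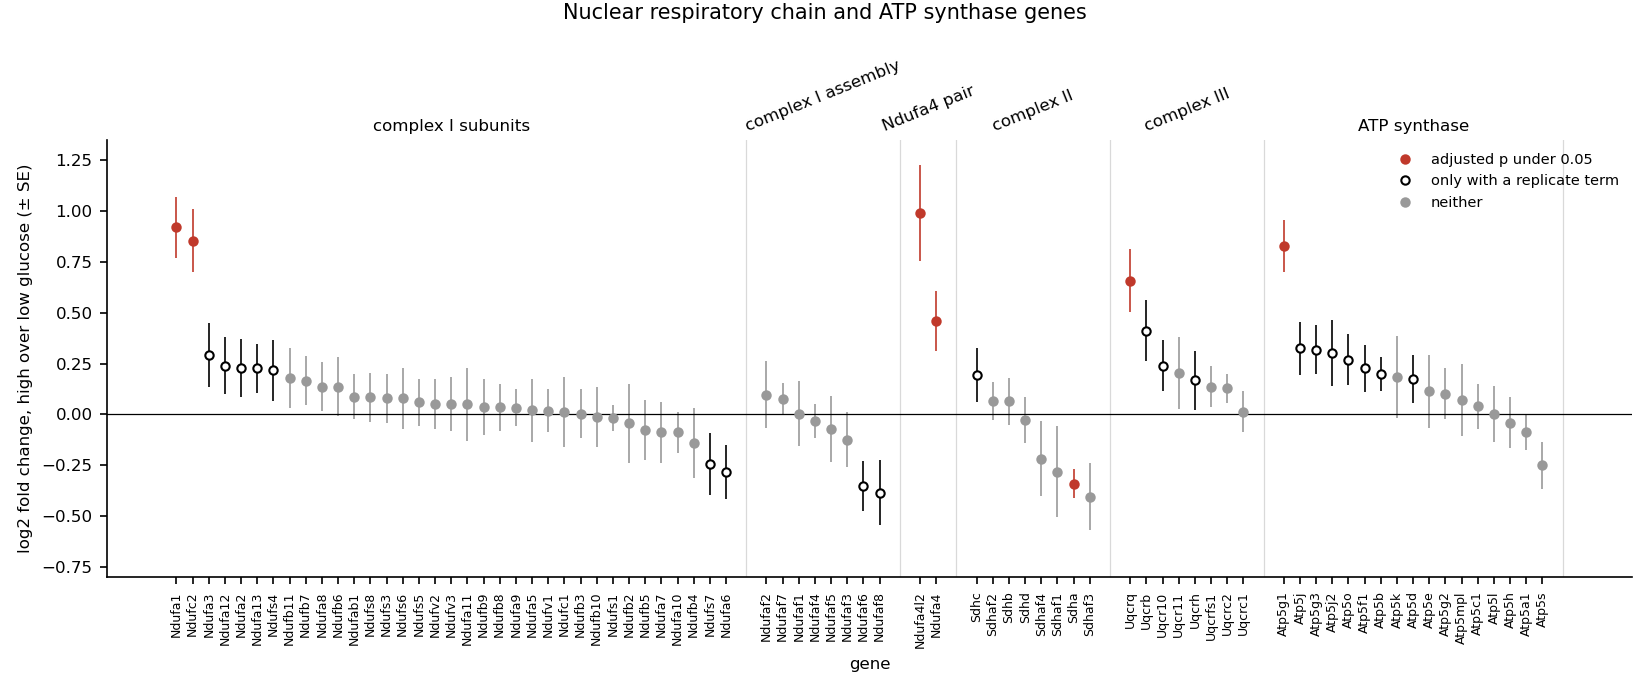
Log2 fold change of high over low glucose for the genes described, with its standard error, grouped by complex and sorted within it. Red points passed the edgeR test at an adjusted p of 0.05, open points passed only with the replicate number as a block, and grey points passed neither. Ndufa1 and Ndufc2 stand near 0.9, Ndufa4l2 near 1.0, and Sdha is the only red point below 0.

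Complex I, the entry point for electrons from NADH, had 36 subunits among the 79. Of these 3 rose, none fell and 33 did not pass, where 13.1% of all genes tested rose and 11.9% fell. Their median was 0.05 on the log2 scale. The core subunits carry the flavin, the iron-sulfur clusters and the ubiquinone end of the peripheral arm. Ndufv1, which binds NADH and the flavin, averaged 88.8 ± 4.78 CPM in high glucose and 87.7 ± 14.1 CPM in low glucose (SD, n = 4 each). Ndufs1, the largest iron-sulfur subunit, averaged 85.2 ± 2.56 CPM in high glucose and 86.3 ± 4.92 CPM in low glucose. The 95% intervals ran from -0.16 to 0.13 on the log2 scale for Ndufs1 and from -0.21 to 0.25 for Ndufv1. Ndufs7, which carries the iron-sulfur cluster next to ubiquinone, had a log2 fold change of -0.24 ± 0.15. It was not called (edgeR adjusted p = 0.287), but was lower with the replicate block (edgeR adjusted p = 0.0316).

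The supernumerary subunits surround the core and are needed for its assembly or stability. Of 29, 2 rose and none fell, where 13.1% of all genes tested rose and 11.9% fell. Ndufa1, a small membrane-arm subunit encoded on the X chromosome (ENSMUSG00000016427, 37187588 to 37191163), was at 111, 139, 126 and 110 CPM in high glucose and 52.9, 86.5, 55.9 and 61.5 CPM in low glucose. The groups did not overlap, and the log2 fold change was 0.92 ± 0.15, or 1.89-fold (edgeR adjusted p = 0.00136). Ndufc2, another membrane-arm subunit (ENSMUSG00000030647, chromosome 7, 97400003 to 97407802), was at 85.3, 114, 88.5 and 84.9 CPM in high glucose and 43.3, 67.4, 43.0 and 52.4 CPM in low glucose. Again no low glucose library reached a high glucose one, and the log2 fold change was 0.86 ± 0.15, or 1.81-fold (edgeR adjusted p = 0.00233).

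The deposited lengths were 419 bases for Ndufa1 and 754 for Ndufc2, and in low glucose both genes were highest in replicate 2. Without low glucose replicate 2 their log2 fold changes were 1.10 and 1.01. Relative to the other supernumerary genes, Ndufa1 had an FPKM ratio of 10.4 ± 0.54 in high glucose and 5.79 ± 0.27 in low glucose, and Ndufc2 one of 4.27 ± 0.31 in high glucose and 2.52 ± 0.17 in low glucose. In neither ratio did the groups overlap. Both genes had been called in these same libraries, so the ratios are no separate support.

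The other supernumerary genes gave no call. Ndufa9, a subunit at the junction of the arms, averaged 49.2 ± 1.40 CPM in high glucose and 48.1 ± 6.69 CPM in low glucose. Ndufb8, a membrane-arm subunit often used as an index of assembled complex I, averaged 63.1 ± 1.59 CPM in high glucose and 61.6 ± 12.2 CPM in low glucose. The lowest of the 29 was Ndufa6, with 68.7 ± 7.55 CPM in high glucose and 83.7 ± 16.6 CPM in low glucose and a log2 fold change of -0.29 ± 0.13 (edgeR adjusted p = 0.151). With the replicate block Ndufa6 passed (edgeR adjusted p = 0.00481). Over all 36 subunits that fit called 8 higher and 2 lower, against 18.9% and 18.5% of all genes tested. Without low glucose replicate 2, 14 were called higher and none lower, against 16.8% and 15.6% of all genes.

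**Figure D3:**
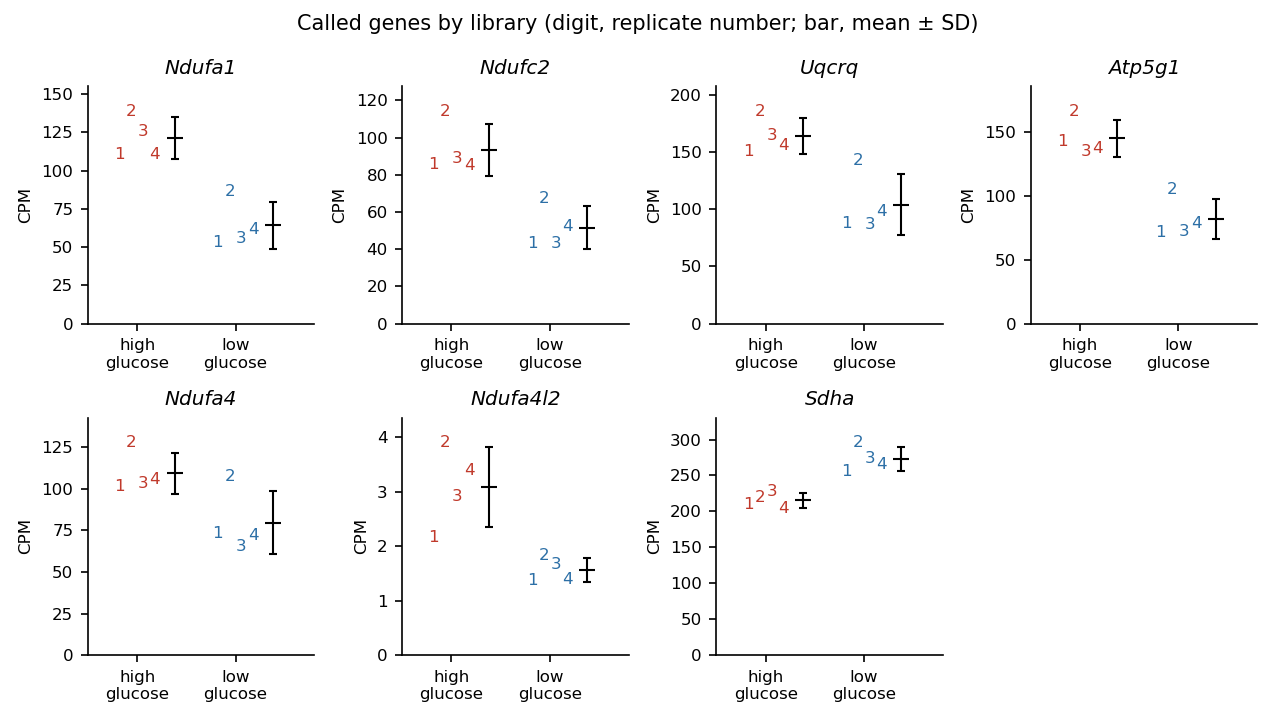
CPM of 7 called genes in each library, with high glucose on the left and low glucose on the right; digits are replicate numbers and bars show the mean ± SD of 4 libraries. Axes start at 0, the low glucose replicate 2 is the highest of its group in every panel, and for Ndufa4 it lies within the high glucose range, while in the other 6 panels the groups do not overlap.

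Complex I assembly factors gave no call among 8, and 2 of them had an unadjusted p under 0.05, both lower. All called genes have such a p, so at least 11.9% of all genes tested were lower at that cutoff. DESeq2 and limma-voom called none either, and the replicate block called 2 lower, against 18.5% of all genes tested. Their log2 fold changes spanned -0.39 for Ndufaf8, which works with the methyltransferase-like factor Ndufaf5, to 0.10 for Ndufaf2, a late assembly factor. Ndufaf8 was at 11.1, 14.0, 14.7 and 13.7 CPM in high glucose and 14.1, 23.4, 15.6 and 16.9 CPM in low glucose. The groups overlapped by a single pair of libraries, and the edgeR adjusted p was 0.108 without and 0.0208 with the replicate block.

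Ndufa4 carries a complex I name but has since been assigned to cytochrome oxidase, and Ndufa4l2 is its paralog, known as a target of hypoxia signalling. Both rose. Ndufa4l2 (ENSMUSG00000040280, chromosome 10, 127514967 to 127517154) was low, at 2.17, 3.90, 2.92 and 3.40 CPM in high glucose against 1.36, 1.82, 1.66 and 1.39 CPM in low glucose. The groups did not overlap, and the log2 fold change was 0.99 ± 0.24, or 1.99-fold (edgeR adjusted p = 0.0111). Its exons share 32 bases with Shmt2 on the opposite strand, and Shmt2 had 11182 counts over all libraries against 400 for Ndufa4l2.

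Ndufa4 (ENSMUSG00000029632, chromosome 6, 11900292 to 11907497) was far more abundant, at 102, 128, 103 and 106 CPM in high glucose and 73.3, 108, 65.6 and 72.2 CPM in low glucose. Low glucose replicate 2 exceeded 3 of the high glucose libraries. The log2 fold change was 0.46 ± 0.15, with an edgeR adjusted p of 0.0449 that missed the threshold in 7 of the 8 fits that left out 1 library, where it reached 0.119 at most. Leaving out low glucose replicate 2 was the exception, with a log2 fold change of 0.64 and an edgeR adjusted p of 0.000531. Ndufa4l2 made up 3.42 ± 0.56% of the summed FPKM of the pair in high glucose and 2.46 ± 0.44% in low glucose. That difference of shares did not pass a two-sided exact permutation test over libraries (p = 0.0571).

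Complex II oxidizes succinate and is shared by the citric acid cycle and the respiratory chain. Sdha, its flavin-bearing catalytic subunit (ENSMUSG00000021577, chromosome 13, 74322254 to 74350280), fell. It was at 209, 220, 227 and 204 CPM in high glucose and 256, 295, 274 and 265 CPM in low glucose. Every high glucose library was below every low glucose library, and the log2 fold change was -0.34 ± 0.07, a 1.27-fold higher level in low glucose (edgeR adjusted p = 0.00639).

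The other complex II subunits did not pass. Sdhb, the iron-sulfur subunit, averaged 72.4 ± 4.12 CPM in high glucose and 69.3 ± 12.9 CPM in low glucose. Sdhd, a membrane anchor, averaged 106 ± 9.36 CPM in high glucose and 108 ± 17.8 CPM in low glucose. Sdhc, the other anchor, averaged 107 ± 13.8 CPM in high glucose and 93.7 ± 17.2 CPM in low glucose, with an edgeR adjusted p of 0.323 that fell to 0.0163 with the replicate block. The FPKM ratio of Sdha to the geometric mean of Sdhb, Sdhc and Sdhd was 1.20, 1.05, 1.24 and 1.16 in high glucose and 1.60, 1.32, 1.70 and 1.64 in low glucose, so the groups did not overlap. Sdha had been called in these same libraries, so its ratio is no separate support.

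None of the 4 assembly factors of complex II was called, DESeq2 and limma-voom called none, and 1 had an unadjusted p under 0.05, lower. At least 11.9% of all genes tested were lower at that cutoff. Sdhaf2, which attaches the flavin to Sdha, averaged 29.8 ± 2.83 CPM in high glucose and 28.4 ± 2.41 CPM in low glucose. Sdhaf3, which helps to insert iron-sulfur clusters into Sdhb, averaged 3.87 ± 0.47 CPM in high glucose and 5.12 ± 0.67 CPM in low glucose (log2 fold change -0.40 ± 0.17, edgeR adjusted p = 0.103).

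Complex III passes electrons from ubiquinol to cytochrome c. All 8 of its genes had a log2 fold change above 0, against 7496 of the 15442 genes tested. Their median was 0.19, and 1 rose and none fell, where 13.1% of all genes tested rose and 11.9% fell. Uqcrq, a small subunit that sits next to cytochrome b (ENSMUSG00000044894, chromosome 11, 53427922 to 53430831), was at 150, 186, 165 and 156 CPM in high glucose and 87.8, 143, 86.7 and 98.5 CPM in low glucose. Low glucose replicate 2 came within a few CPM of the lowest high glucose library without reaching it. The log2 fold change was 0.66 ± 0.15, or 1.58-fold (edgeR adjusted p = 0.00998). The FPKM ratio of Uqcrq to the geometric mean of the other complex III genes was 1.31 ± 0.03 in high glucose and 0.94 ± 0.06 in low glucose.

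The core proteins and the Rieske protein of complex III did not pass. Uqcrc1 averaged 121 ± 6.15 CPM in high glucose and 120 ± 17.8 CPM in low glucose, and its log2 fold change of 0.01 ± 0.10 was the lowest of the complex. Uqcrc2 averaged 124 ± 7.47 CPM in high glucose and 113 ± 5.70 CPM in low glucose. Uqcrfs1, the Rieske iron-sulfur protein, averaged 107 ± 8.70 CPM in high glucose and 97.7 ± 12.8 CPM in low glucose. The replicate block called 4 of the 8 higher, against 18.9% of all genes tested. The fit without low glucose replicate 2 called 6 higher, against 16.8% of all genes.

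**Figure D4:**
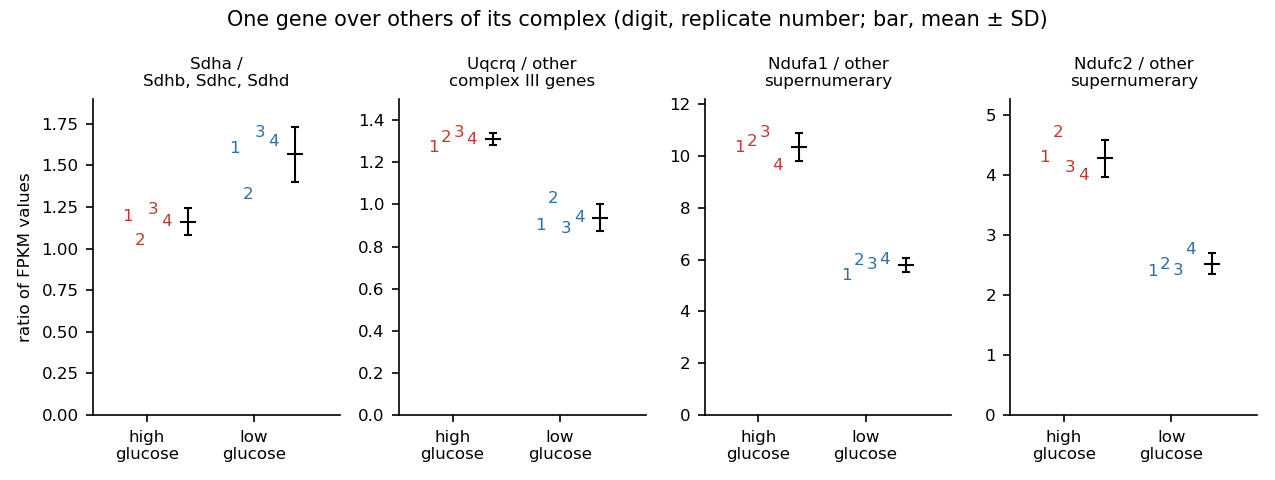
Ratio of the FPKM of 1 gene to the geometric mean of other genes of its complex in each library, with high glucose on the left and low glucose on the right; digits are replicate numbers and bars show the mean ± SD of 4 libraries. The groups do not overlap in any of the 4 panels, and low glucose replicate 2 lies within or near its group in the panels for Ndufa1 and Ndufc2. The gene on top of each ratio had been called in these same libraries, so the panels are no separate support.

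The ATP synthase joins a catalytic F1 head to a proton-conducting Fo base through a central rotor and a peripheral stalk. Of its 17 genes 1 rose and none fell, where 13.1% of all genes tested rose and 11.9% fell. Their median log2 fold change was 0.17, and 14 were above 0, against 7496 of the 15442 genes tested. Atp5g1 passed, 1 of 3 genes that encode the same mature subunit c of the Fo ring with different mitochondrial targeting sequences. Atp5g1 (ENSMUSG00000006057, chromosome 11, 96068852 to 96075670) was at 142, 166, 135 and 137 CPM in high glucose and 71.0, 105, 72.3 and 78.6 CPM in low glucose. The groups did not overlap, and the log2 fold change was 0.83 ± 0.13, or 1.78-fold (edgeR adjusted p = 0.000985). The processed pseudogene Gm10039 matches it at 99.8% over 411 bases and had 0.985% as many counts.

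The other genes of subunit c did not pass in edgeR, with groups that overlapped, though DESeq2 called Atp5g3 higher (adjusted p = 0.0424). Atp5g3 averaged 164 ± 18.7 CPM in high glucose and 132 ± 21.8 CPM in low glucose, which gave a log2 fold change of 0.32 ± 0.12 (edgeR adjusted p = 0.0825, and 0.000714 with the replicate block). Atp5g2 averaged 86.6 ± 9.79 CPM in high glucose and 80.7 ± 14.7 CPM in low glucose, which gave a log2 fold change of 0.10 ± 0.13 (edgeR adjusted p = 0.599).

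The makeup of the subunit c transcripts differed between the groups. As a share of their summed FPKM, Atp5g1 made up 19.7%, 18.6%, 18.5% and 18.8% in high glucose and 12.8%, 13.6%, 13.5% and 13.2% in low glucose. Atp5g2 made up 33.0 ± 0.52% in high glucose and 38.5 ± 1.00% in low glucose, and Atp5g3 made up 48.1 ± 0.55% in high glucose and 48.3 ± 0.95% in low glucose. In two-sided exact permutation tests over the 8 libraries, adjusted over the 3 genes, p was 0.0429 for Atp5g1, 0.0429 for Atp5g2 and 0.800 for Atp5g3. Atp5g1 had been called in these same libraries, so the tests of its share are no separate support. The shares of the 3 genes are parts of the same sum, so a larger share of Atp5g1 lowers the rest. The result for Atp5g2 is therefore not a separate one, and its own level was not called. The unadjusted p for Atp5g1 and for Atp5g2, 0.0286, is the smallest that 4 against 4 libraries allows. With the replicate numbers as pairs the smallest is 0.125, and both shares then had an adjusted p of 0.188. The size of a share rests on the length, since 4912 bases are deposited for Atp5g1 and its principal transcript in GENCODE M21 has 596. With principal lengths Atp5g1 made up 36.4 ± 0.88% in high glucose and 27.1 ± 0.62% in low glucose. The share of Atp5g3 then differed too, by -2.31 percentage points, and by -3.39 points when read counts were not divided by length (exact permutation p = 0.0286 for each), so its result depends on the length used.

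**Figure D5:**
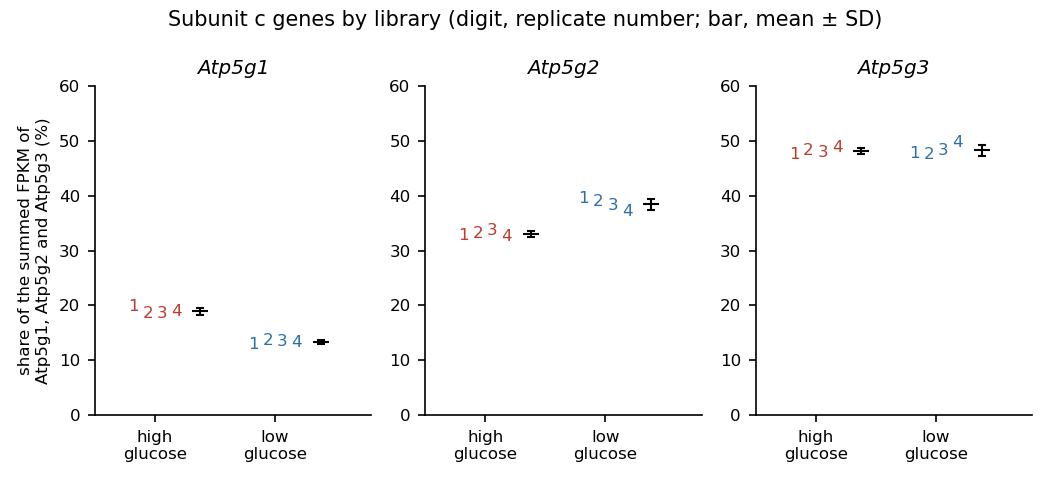
Share of each subunit c gene in the summed FPKM of Atp5g1, Atp5g2 and Atp5g3 in each library, in percent, with high glucose on the left and low glucose on the right; digits are replicate numbers and bars show the mean ± SD of 4 libraries. The shares of Atp5g1 lie between 18.5% and 19.7% in high glucose and between 12.8% and 13.6% in low glucose, those of Atp5g2 are lower in high glucose, and those of Atp5g3 overlap. Atp5g1 had been called in these same libraries and the shares are parts of the same sum, so the panels are no separate support.

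None of the 5 F1 genes was called, and 1 had an unadjusted p under 0.05, while DESeq2 and limma-voom called none. At least 25.0% of all genes tested had such an unadjusted p. Atp5b, the catalytic β subunit, averaged 679 ± 17.9 CPM in high glucose and 593 ± 58.6 CPM in low glucose. Its log2 fold change of 0.20 ± 0.08 had an edgeR adjusted p of 0.115, and of 0.0164 with the replicate block. Atp5a1, the α subunit, averaged 629 ± 34.4 CPM in high glucose and 669 ± 69.0 CPM in low glucose, which gave a log2 fold change of -0.09 ± 0.09. The F1 head holds α and β in equal number. The FPKM ratio of Atp5b to Atp5a1 was 0.807, 0.772, 0.784 and 0.839 in high glucose and 0.667, 0.653, 0.653 and 0.650 in low glucose, and these groups did not overlap. How often the ratios of other gene pairs separate in this way was not computed. Atp5c1, the γ subunit of the rotor, averaged 145 ± 9.34 CPM in high glucose and 141 ± 23.7 CPM in low glucose.

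Of the 8 Fo and stalk genes none was called by edgeR, DESeq2 or limma-voom, and 1 had an unadjusted p under 0.05, against at least 25.0% of all genes tested. Atp5j, a stalk subunit, had the highest log2 fold change of them at 0.33 ± 0.13 (edgeR adjusted p = 0.0973, and 0.000626 with the replicate block). It averaged 98.2 ± 13.9 CPM in high glucose and 78.4 ± 13.7 CPM in low glucose. Atp5h, another stalk subunit, had the lowest at -0.04 ± 0.13, and averaged 99.7 ± 7.23 CPM in high glucose and 103 ± 21 CPM in low glucose. Atp5s, a coupling factor outside the main complex, averaged 11.2 ± 1.33 CPM in high glucose and 13.4 ± 1.28 CPM in low glucose (edgeR adjusted p = 0.150). Over all 17 genes the replicate block called 8 higher and none lower, against 18.9% and 18.5% of all genes tested. The fit without low glucose replicate 2 called 10 higher and none lower, against 16.8% and 15.6% of all genes.

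Transcript levels per length varied widely within the set. With the deposited lengths, over the 8 libraries Ndufa1 had the highest mean at 218 FPKM, followed by Atp5a1 at 203, Atp5b at 148 and Ndufb11 at 122. In high glucose Ndufa1 was at 287 ± 31.6 FPKM and Atp5a1 at 198 ± 10.6 FPKM. In low glucose the order of this pair was reversed, with Ndufa1 at 149 ± 35.3 FPKM and Atp5a1 at 208 ± 21.3 FPKM. Over all libraries the ranges of Ndufa1 (122 to 325 FPKM) and Atp5a1 (189 to 238 FPKM) overlapped. This order rests on the lengths: with principal transcripts in GENCODE M21 the means were 332 CPM per kilobase for Atp5b, 263 for Atp5a1 and 221 for Ndufa1, which then stood below both. By FPKM the lowest was the assembly factor Sdhaf3 at 0.87 FPKM, and the median of the complex I assembly factors was 5.39 FPKM, against 33.1 FPKM for complex I subunits and 73.0 FPKM for complex III.

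Other genes of the pathway were taken from 5 further lists. Of all genes tested, 13.1% were called higher and 11.9% lower. Of the 10 mitochondrially encoded genes of complexes I and III and the ATP synthase, edgeR, DESeq2 and limma-voom called none, and none had an unadjusted p under 0.05. Among 5 tested subunits and carriers with other names, Cycs rose and Cox7a2l fell. Cycs, which encodes cytochrome c, was at 80.2, 88.0, 78.8 and 81.7 CPM in high glucose and 42.7, 59.0, 42.1 and 46.7 CPM in low glucose. Its log2 fold change was 0.79 ± 0.11, or 1.73-fold (edgeR adjusted p = 0.000428). Cox7a2l was at 167, 191, 168 and 179 CPM in high glucose and 318, 448, 323 and 319 CPM in low glucose. Its log2 fold change was -0.997 ± 0.12 (edgeR adjusted p = 0.000203), and for both genes the groups were far apart.

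Of 20 assembly factors with other names, Ttc19 of complex III rose, by 0.23 ± 0.06 on the log2 scale (edgeR adjusted p = 0.0208), and none fell. Leaving out high glucose replicate 4 or low glucose replicate 4 ended the call of Ttc19 (edgeR adjusted p = 0.0650 and 0.0658), as did 3 of the other 12 settings. Of 13 genes of coenzyme Q synthesis none rose and 3 fell, where 13.1% of all genes tested rose and 11.9% fell. The 3 were the kinase-like factor Coq8a with a log2 fold change of -0.78 ± 0.07, Coq4 with -0.59 ± 0.19 and the methyltransferase Coq5 with -0.38 ± 0.11. The edgeR adjusted p was 3.8e-05 for Coq8a, 0.0479 for Coq4 and 0.0312 for Coq5. Coq8a was at 20.9 ± 0.62 CPM in high glucose and 36.0 ± 2.27 CPM in low glucose, whereas the groups overlapped for Coq4 and Coq5. Coq4 missed the threshold in 6 of the 8 fits that left out 1 library (edgeR adjusted p up to 0.118), without a filter and with upper-quartile scaling, and Coq5 in 5 of the 8 (up to 0.0875). Of 15 regulators of respiratory genes 1 rose and 3 fell, against the same shares of all genes, 13.1% and 11.9%. Pprc1, a coactivator related to PGC-1, averaged 38.4 ± 2.62 CPM in high glucose and 27.8 ± 2.75 CPM in low glucose. Nrf1, the factor that binds the NRF1 motif, averaged 21.6 ± 1.09 CPM in high glucose and 29.3 ± 3.33 CPM in low glucose. Lrpprc, which stabilizes mitochondrial mRNAs, averaged 87.5 ± 3.74 CPM in high glucose and 130 ± 8.81 CPM in low glucose, and Yy1 92.7 ± 1.87 CPM in high glucose and 111 ± 1.16 CPM in low glucose. For these 4 regulators the groups of libraries did not overlap, and the edgeR adjusted p lay between 0.00028 and 0.00724. With the replicate block the calls among carriers were 3 higher and 1 lower, among assembly factors 3 higher and 1 lower, and in coenzyme Q synthesis 2 higher and 4 lower. That fit called 18.9% of all genes tested higher and 18.5% lower.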

How the data were processed

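Per the file headers, the deposited table gives for every gene the unnormalized read count of each library. Its FPKM columns, also from the authors, are that count over the listed gene length and a total for the library, and its signal columns, deposited by the authors, are the count over a size factor and were not tested. The authors' own test of the groups is deposited too, as a log2 fold change and a p-value. Per the submitters' processing notes, STAR 2.5, HTSeq 2 and DESeq2 were used with mm10 (GRCm38). Per the labels' protocols, the library kit was NEBNext Ultra. How strand and reads with several positions were treated, and the annotation release, is not given in the sources used here, so the 31 genes that share exon bases with another gene and the 23 with a copy of at least 200 bases at 95% identity in GENCODE M21 are uncertain.

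The test was edgeR 4.0.16 under R 4.3.3 on the counts (TMM scaling, filterByExpr with a minimum count of 10 and a minimum total of 15, quasi-likelihood fit with the group as its only term). Benjamini-Hochberg adjustment ran over all 15442 genes tested, and the threshold was 0.05. CPM values use the library size after TMM, a log2 fold change is high over low glucose, and its standard error is its size over the square root of F. FPKM was used for ratios, shares and levels between genes. The ratios were not tested. Apart from Atp5b, the gene on top of each ratio had been called in these same libraries. Intervals at 95% are the log2 fold change plus or minus 2.22 standard errors, the t quantile for the degrees of freedom of the fit. Depth was 19543045 to 24949515 counts, and a floor of 3 counts is 0.120 to 0.154 CPM (counting error only). Chi-square per gene was at least 14.3 in every pair of libraries, where sampling noise gives about 1, so none was counted as a copy. The pipeline was tested on simulated counts.

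The alternatives were DESeq2 1.42.0, limma-voom (limma 3.58.1), other scalings and filters, a replicate block and leaving out each library. A gene length offset per library, scaling by the 79 genes, leaving out both libraries numbered 2 and principal transcript lengths (for shares) were added after seeing the data. Library numbers run 1 to 4 in each group, and the labels do not explain them. The deviations of same-numbered libraries from their group means correlated by 0.101, 0.449, 0.404 and 0.475. Those of differently numbered libraries correlated by -0.367 to 0.207, a range that holds the 0.101 of the first pair. The numbers were treated as pairs in the block, although the first pair did not stand out.

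The 79 genes, the further lists and the rule for naming genes were chosen with earlier results of these data known. The rule names a panel of 20 genes, the called genes of the set, the highest and lowest of each role, and up to 4 passing genes in each direction of each further list. Promoter sequences are from RefSeq (GRCm38.p6), matched by symbol or synonym for 67 genes; none was printed for Uqcrq and Ndufa4l2. Some results are not reported here. BLAST 2.17.0 was used for copies.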

Additional observations from a re-analysis of the deposited data

Results flagged for a closer look

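For each named gene, for the summed level of the 79 and for 4 shares within gene families, the library at either end of a group of 4 was checked for a gap to its nearest neighbour, as a part of the group's range, above Dixon's critical value. Of 94 such groups 15 exceeded it, and 9 of the 15 concerned low glucose replicate 2. Chance flags about 1 in 20 of independent groups. These groups share the same libraries, so that rate cannot be set beside their count. In that library the gap ratio was 0.842 for Atp5g2, 0.947 for Atp5h, 0.964 for Cox7a2l, 0.859 for Ndufa9, 0.853 for Ndufb8, 0.903 for Ndufv1, 0.881 for Sdhb, 0.860 for Sdhd and 0.853 for the summed level of the 79 genes. It was the high end each time. In high glucose replicate 2 the ratio was 0.832 for Atp5g2, 0.864 for Atp5g3, 0.847 for Ndufa4, 0.874 for Ndufc2 and 0.953 for Ndufv1, also at the high end. Sdhaf3 was lowest in low glucose replicate 3, with a ratio of 0.932. The same library number was thus high in both groups, and what the number stands for is not in the labels.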

How the results depend on the processing

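The calls of Ndufa1, Ndufc2, Ndufa4l2, Uqcrq, Atp5g1 and Sdha kept their direction and passed the threshold in all 20 alternative fits, and Ndufa4 did so in 13. Counts of calls moved with the treatment of the libraries, and the cause was not tested. With the replicate block the 79 genes gave 23 higher and 5 lower (complex I subunits 8 and 2, complex I assembly 2 lower, complex II 1 higher, complex III 4, ATP synthase 8), and 2862 of all genes were lower. Carriers then gave 3 higher, assembly factors with other names 3 higher and 1 lower and coenzyme Q synthesis 2 higher. The block left the share differences at 5.63 percentage points for Atp5g1 and -5.42 for Atp5g2, with an adjusted p of 0.188.

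Settings added after seeing the data follow. A gene length offset gave 15 higher and 4 lower of the 79 (24.1%, against 29.3% of all genes; complex I subunits 5 and 1, complex I assembly 1 lower, complex III 3, ATP synthase 5 and 1, carriers 3 higher, assembly 1 lower, coenzyme Q 2 higher), with log2 fold changes of 0.023 for Ndufs1 and -0.0025 for Ndufv1. With the block as well it gave 26 and 6 (40.5%, against 38.6%, or 3188 and 2770 genes; complex I subunits 9 and 2, complex I assembly 2 lower, complex II 1 higher, complex III 5, ATP synthase 9 and 1, mitochondrial genes 1 higher, carriers 3, assembly 3 and 1, coenzyme Q 2 higher, Ndufs1 0.027). Without both libraries numbered 2 it was 34 higher (43.0%, against 16.4% of all genes; complex I subunits 14, complex II 2, complex III 6, ATP synthase 10, carriers 4, assembly 6 and 1, coenzyme Q 2), with 0.064 for Atp5h, 0.015 for Ndufs1 and 0.038 for Sdhd. Scaling by the 79 genes shifted the median of all genes to -0.13 and gave 3 of the 79 lower (3.8%, against 8.39% of all genes) and 898 of all genes higher (complex I subunits 1 lower, complex I assembly 1 lower, complex III 2 higher, assembly 0 and 1, regulators 0 higher), with -0.058 for Atp5c1, -0.065 for Ndufa9, -0.054 for Ndufb8, -0.080 for Ndufv1, -0.052 for Sdhaf2, -0.029 for Sdhb and -0.085 for Uqcrc1. The share difference of Atp5g3 was -2.31 points with principal lengths (exact permutation p = 0.0286).

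Scaling by library size alone gave 6 lower (7.59%, against 17.1% of all genes; complex I subunits 1, complex I assembly 2, complex II 2, ATP synthase 1, assembly 0 higher and 1 lower), with -0.035 for Atp5c1, -0.041 for Ndufa9, -0.038 for Ndufb8, -0.056 for Ndufv1, -0.016 for Sdhaf2, -0.0096 for Sdhb and -0.062 for Uqcrc1. DESeq2 gave 2 higher in complex III, 2 in the ATP synthase, 1 in coenzyme Q synthesis and 1 lower in assembly. Without a filter no assembly gene was called. By read counts the share difference of Atp5g3 was -3.39 points. Leaving out 1 library gave 6 to 34 genes higher (7.59% to 43.0%, against 10.2% to 16.8% of all genes; complex I subunits 3 to 14, the Ndufa4 pair 1 to 2, complex II 0 to 2, complex III 1 to 6, ATP synthase 1 to 10, carriers 1 to 4, assembly 0 to 6, coenzyme Q 0 to 2 higher and 1 to 3 lower, mitochondrial genes 0 to 1), the highest without low glucose replicate 2 except for the mitochondrial gene, called without low glucose replicate 1. Log2 fold changes that turned then spanned -0.033 to 0.16 for Atp5c1, -0.096 to 0.12 for Atp5h, -0.014 to 0.14 for Ndufa9, -0.014 to 0.24 for Ndufaf2, -0.026 to 0.18 for Ndufb8, -0.043 to 0.021 for Ndufs1, -0.028 to 0.14 for Ndufv1, -0.086 to 0.097 for Sdhd, -0.040 to 0.12 for Uqcrc1 and -0.49 to 0.23 points for the Atp5g3 share.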
